A study of Mus musculus with 20 samples.

Results

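Slc1a2, Slc1a3, Glul, Gja1, Gjb6, Aqp4, Slc6a11 and Slc7a10 encode the transporters, the glutamine-forming enzyme, the gap junction proteins and the water channel that define the housekeeping work of astrocytes. These 8 genes of the 32285 listed in the count matrices were chosen by name, with earlier results of these data known. Their raw UMIs (unique molecular identifiers, each standing for a captured RNA molecule) were summed per mouse over marker-gated astrocytes and over all nuclei. The data were single nucleus RNA-seq libraries from the hippocampus of 20 male mice, 4.5 to 5.5 months old, with 1 library per mouse. The labels gave 6 WT_Wake, 3 WT_Isofluran, 2 WT_Ketamine, 3 APP/PS1_Wake, 4 APP/PS1_Isofluran and 2 APP/PS1_Ketamine mice. WT mice were wild-type littermates of the APP/PS1 (APPSwe/PS1ΔE9) mice. Isoflurane was started at 5% and lowered to 1.5%, ketamine was given at 150 mg/kg together with xylazine at 12 mg/kg, and tissue was taken after 3 h of anesthesia. Ketamine and xylazine were always given together, so their effects cannot be told apart. The APP/PS1 transgenes are driven by the mouse prion protein promoter, which is active in neurons and glia alike. The design text of the series counts the wake and isoflurane groups differently from the sample labels, and the groups here follow the sample labels.

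Astrocytes clear the glutamate released at excitatory synapses through GLT-1 (Slc1a2) and GLAST (Slc1a3), convert it to glutamine with glutamine synthetase (Glul) and return the glutamine to neurons. GAT-3 (Slc6a11) takes up GABA, and Asc-1 (Slc7a10) exchanges small neutral amino acids such as serine and glycine. Connexin 43 (Gja1) and connexin 30 (Gjb6) couple astrocytes into a network that spreads ions and metabolites, and aquaporin-4 (Aqp4) is concentrated in the endfeet around blood vessels, where it carries water and has been linked to fluid exchange during sleep and anesthesia.

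In GENCODE vM21 annotation of GRCm38, Slc1a2 lies at chr2:102658659-102790784 (plus strand), Slc1a3 at chr15:8634124-8710764 (minus strand), Glul at chr1:153899944-153909723 (plus strand), Gja1 at chr10:56377330-56402513 (plus strand), Gjb6 at chr14:57123303-57133611 (minus strand), Slc6a11 at chr6:114131241-114249952 (plus strand) and Slc7a10 at chr7:35186385-35201114 (plus strand). All 8 are protein-coding. A listed gene on the opposite strand overlaps Slc1a2 (Gm13872), Glul (Teddm2), Aqp4 (AC133525.2) and Slc7a10 (Lrp3). Promoter sequences of RefSeq (GRCm38.p6) were read for 7 of the 8 members, and that of Aqp4 was not read. Those of 3 members are shown as examples from the Gfap comparison described below. Slc1a2 and Gja1 were higher, and Slc7a10 lower, in astrocytes with detected Gfap RNA. The Slc7a10 call was lost when nuclei were thinned to the same depth. Glul was also higher with Gfap, and its promoter is not shown. The windows shown are chr2:102706188-102706487 (plus strand), chr10:56377050-56377349 (plus strand) and chr7:35186135-35186434 (plus strand). The Slc1a2 window lies inside the GENCODE gene, which starts further upstream. Capitals mark matches, on either strand, to the letters of the motifs named next.
Slc1a2: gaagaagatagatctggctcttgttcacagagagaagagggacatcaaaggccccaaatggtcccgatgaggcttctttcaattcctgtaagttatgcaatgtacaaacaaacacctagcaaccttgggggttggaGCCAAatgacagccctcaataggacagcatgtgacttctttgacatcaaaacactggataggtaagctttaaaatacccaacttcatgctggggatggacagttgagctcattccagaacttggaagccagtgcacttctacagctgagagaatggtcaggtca
Gja1: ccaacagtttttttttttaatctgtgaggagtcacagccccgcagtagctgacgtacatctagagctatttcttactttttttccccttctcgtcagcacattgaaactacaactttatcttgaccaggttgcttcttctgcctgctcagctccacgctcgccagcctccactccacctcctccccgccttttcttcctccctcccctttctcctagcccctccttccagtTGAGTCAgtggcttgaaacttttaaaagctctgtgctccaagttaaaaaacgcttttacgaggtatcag
Slc7a10: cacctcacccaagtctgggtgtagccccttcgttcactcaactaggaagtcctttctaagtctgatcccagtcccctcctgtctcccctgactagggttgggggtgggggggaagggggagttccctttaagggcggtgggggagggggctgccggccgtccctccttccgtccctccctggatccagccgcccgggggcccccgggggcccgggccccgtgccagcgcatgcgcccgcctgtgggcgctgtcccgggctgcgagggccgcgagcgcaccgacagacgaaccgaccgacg
The motifs were searched on both strands and were a STAT motif (TTCNNNGAA), an AP-1 motif (TGA, then any base, then TCA), a SOX motif (ACAAAG), a short NFI motif (TTGGC), the E-box (CACGTG) and the box near many start sites (TATAAA). Gja1 held 1 AP-1 match, a motif found in 7.81% of 32851 promoters of the same length. Slc1a2 held 1 short NFI match, found in 46.7% of promoters, and Slc7a10 held no match to these letters. GC content was 45.7% in the Slc1a2 window, 47.7% in that of Gja1 and 70.7% in that of Slc7a10, against a median of 52.7% over all promoters.

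The libraries held 160777 nuclei, 4743 to 10877 per mouse, with 9243990 to 25394900 UMIs each. Astrocytes were gated on 26 marker genes that did not include the 8 members: a nucleus counted as an astrocyte when at least 3 different markers were detected and each of the other 11 classes reached at most 0.5 times that number of its own markers. This gave 24212 astrocytes (15.1% of nuclei), 645 to 2261 per mouse, with a median of 675 to 2203 UMIs per astrocyte. Libraries shared at most 35 cell barcodes, and at most 0.407% of the smaller library of a pair. In the gated astrocytes the 26 gate genes summed to 13857 to 20073 CPM (counts per 1000000 UMIs) in wake mice, 14035 to 18361 CPM in isoflurane mice and 15355 to 19222 CPM in ketamine-xylazine mice. Mice 1 to 4 stood apart by their mitochondrial share of UMIs (0.939 to 1.78%, against 0.035 to 0.336% in the other 16). Prnp, whose promoter drives the transgenes, was at 67.9 to 414 CPM over all nuclei in mice labelled APP/PS1 and at 44.6 to 197 CPM in mice labelled WT, so the ranges overlapped. Mice 11, 17 and 20, labelled APP/PS1, were at 67.9, 75.9 and 100 CPM and mouse 14, labelled WT, was at 197 CPM. Genotypes are therefore named as labelled, and results were also computed without these 4 mice. The ketamine-xylazine mice were numbers 25 to 28, and among the wake mice only number 29 was near them in number.

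The member genes were detected mainly in the gated astrocytes. After each nucleus was thinned to 500 UMIs, Slc1a2 was detected in a median of 90.7% of astrocytes per mouse and in 7.74% of dentate granule neuron-like nuclei, a class taken as the background of free RNA. The corresponding medians were 63.3% and 3.07% for Slc1a3, 28.2% and 0.985% for Glul, and 25.9% and 0.435% for Gja1. They were 13.1% and 0.3% for Aqp4, 12.2% and 0.3% for Slc6a11, 8.77% and 0.155% for Slc7a10, and 5.96% and 0.129% for Gjb6. Without thinning, Slc1a2 was detected in a median of 96.6% of astrocytes and 25.6% of granule neuron-like nuclei. The unthinned medians were 83.0% and 10.6% for Slc1a3 and 50.1% and 4.02% for Glul. Granule neuron-like nuclei were deeper than astrocytes, for example at a median of 2619 against 1419 UMIs in mouse 1. Thinning removed more of their UMIs, so the thinned background may be too low for astrocytes. The 8 genes together took a median of 1.06% of all astrocyte UMIs per mouse (0.865 to 1.32%). Pooled over mice, between 56.1% (Glul) and 78.7% (Gja1 and Aqp4) of each member's UMIs over all nuclei came from the gated astrocytes. The lowest share in a single mouse was 33.2% for Gjb6, 44.2% for Glul and 47.6% for Slc6a11. For the other members it was 60.3% (Slc1a3) or more. The gates placed 49.2% of all nuclei in a class.

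Outside astrocytes, each member had its own pattern over the marker-gated classes, given here as the median over mice with at least 20 nuclei of the class, as CPM of that class without further scaling. Counts from the 3' end were not scaled by transcript length, so levels are compared between classes of a gene and not between genes. GLT-1 (Slc1a2) stood at 6722 CPM in astrocytes, followed by oligodendrocyte precursor-like nuclei at 377 CPM and CA3 pyramidal-like nuclei at 338 CPM. These neighbours did not separate, since the precursors were higher in 13 of 20 mice. The CA3-like level was above the CA1-like level (96.3 CPM), the granule neuron-like level (154 CPM) and the GABAergic-like level (83 CPM) in 20 of 20 mice. To set such values against free astrocyte RNA, each member's UMIs were divided by the summed UMIs of the gate genes other than Gpc5. That gene was left out after it was seen to be high in several other classes. The gate caps the number of astrocyte markers in the other classes and puts no cap on the members. A ratio above that of astrocytes can therefore come from the gate, and its part in these ratios was not tested. For Slc1a2 this ratio in CA3-like nuclei was 2.17 times that in astrocytes. It was 0.84 times in CA1-like, 0.83 times in oligodendrocyte precursor-like and 0.72 times in granule neuron-like nuclei. The CA3 markers summed to a median of 1487 CPM in the gated astrocytes of wake mice, against 4175 CPM in CA3-like nuclei. These markers were thus not confined to the CA3-like class.

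GLAST (Slc1a3) was at 2184 CPM in astrocytes, 745 CPM in fibroblast-like nuclei and 283 CPM in microglia-like nuclei, with fibroblast-like above microglia-like nuclei in 13 of 15 mice. Relative to the gate genes its level was 3.04 times the astrocyte ratio in fibroblast-like and 2.18 times in microglia-like nuclei. In microglia-like nuclei the ratios of the other members ran from 0.46 times (Slc1a2) to 5.53 times (Glul) that of astrocytes. Among the neurons Slc1a3 was at 57.4 CPM in granule neuron-like, 13.7 CPM in CA3-like, 12.9 CPM in GABAergic-like and 7.65 CPM in CA1-like nuclei. For this gene the granule neuron-like class, taken above as background, need not hold free RNA alone. Glutamine synthetase (Glul) was the least astrocyte-restricted member by its share of UMIs. It stood at 635 CPM in astrocytes, 329 CPM in fibroblast-like, 301 CPM in endothelial-like, 288 CPM in oligodendrocyte-like and 193 CPM in microglia-like nuclei. The ratio to the gate genes was 7.93 times that of astrocytes in oligodendrocyte-like nuclei and 5.53 times in microglia-like nuclei. Fibroblast-like and endothelial-like nuclei were not separated for Glul (higher in 4 of the 7 mice that had both).

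Connexin 30 (Gjb6) was the only member whose class median was not highest in astrocytes: it was at 148 CPM in fibroblast-like nuclei and 107 CPM in astrocytes, and fibroblast-like nuclei were higher in 12 of 16 mice with both classes. Connexin 43 (Gja1) was at 542 CPM in astrocytes, 185 CPM in fibroblast-like and 74.6 CPM in endothelial-like nuclei. Relative to the gate genes, Gjb6 was at 11.2 times and Gja1 at 3.29 times the astrocyte ratio in fibroblast-like nuclei. In endothelial-like nuclei Gjb6 was at 0.79 times and Gja1 at 1.48 times. Aqp4 was at 301 CPM in astrocytes and had a median of at most 23.4 CPM in any other class. Its ratio to the gate genes was at most 1.50 times that of astrocytes, in microglia-like nuclei. Slc6a11 was at 218 CPM in astrocytes, 15.9 CPM in oligodendrocyte precursor-like and 15.4 CPM in GABAergic-like nuclei, and these neighbours were not separated (11 of 20 mice). Its ratio to the gate genes was 2.71 times that of astrocytes in GABAergic-like, 2.59 times in CA1-like and 1.74 times in CA3-like nuclei. It was 1.09 times in oligodendrocyte precursor-like, 0.96 times in granule neuron-like and 0.39 times in oligodendrocyte-like nuclei. Slc7a10 was at 156 CPM in astrocytes and 81.8 CPM in nuclei gated as ependymal or choroid plexus cells, a class with at least 20 nuclei in only 8 mice, where astrocytes were higher in 6. In that class its ratio to the gate genes was 8.86 times that of astrocytes and rested on 52 UMIs. Classes are named from their marker lists alone, and fibroblast-like nuclei made up 0.063 to 2.97% of nuclei in wake mice, 0.138 to 1.01% in isoflurane mice and 1.5 to 10.5% in ketamine-xylazine mice.

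**Figure D1:**
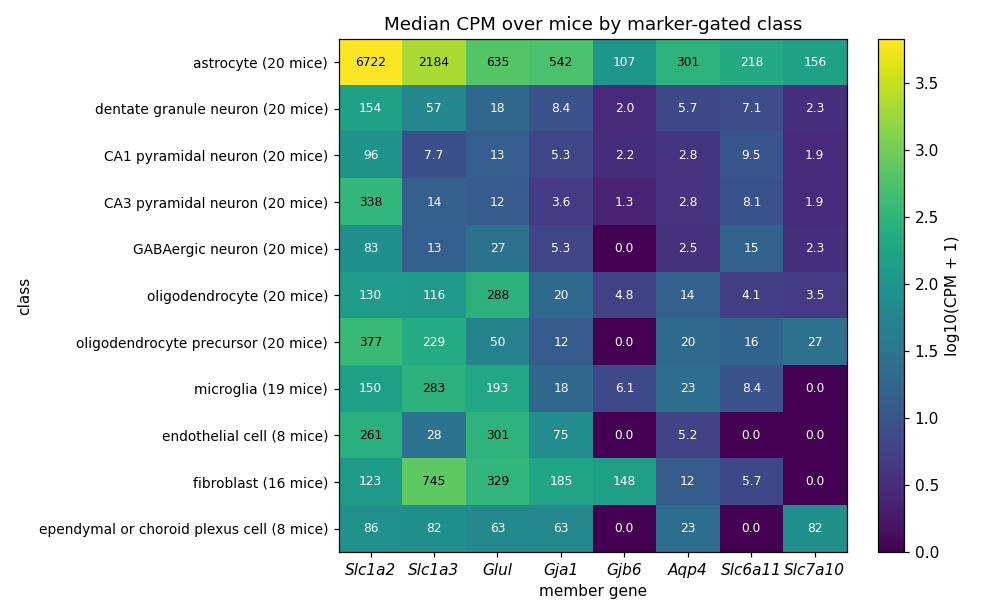
Median CPM over mice of the 8 member genes (columns) in the marker-gated classes (rows, with the number of mice that had at least 20 nuclei), coloured by log10(CPM + 1). Slc1a2 reached 6722 CPM in astrocytes and 338 CPM in CA3-like nuclei, and Gjb6 was higher in fibroblast-like nuclei (148 CPM) than in astrocytes (107 CPM).

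Whether anesthesia changed these genes was tested in the astrocyte sums, with CPM scaled by the TMM factors of edgeR and an adjusted p of 0.05 over all 13990 genes tested. No member passed in any comparison of treatment or genotype in astrocytes. Across all genes, 777 passed between isoflurane and wake (5.55%, 443 higher and 334 lower, 933 by DESeq2) and 991 between ketamine-xylazine and wake (7.08%, 612 higher and 379 lower, 1090 by DESeq2). In the ketamine-xylazine comparison no gene passed once runs of mouse numbers entered as a block (1010 genes had an unadjusted p under 0.05), a fit in which only wake mouse 29 shares a run with the ketamine-xylazine mice. That count was 247 to 610 without mouse 2, 25, 26, 27 or 28, and the isoflurane count was 414 to 502 without mouse 4, 10 or 18. Without mice 1 to 4 together the isoflurane count was 485. In summed counts of astrocytes, a lower member level cannot be told apart from a different mix of astrocytes.

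For the glutamate transporters, Slc1a2 ranged from 5398 to 8823 CPM (median 6686) in the 9 wake mice and from 4411 to 7136 CPM (median 5798) in the 7 isoflurane mice. In the 4 ketamine-xylazine mice it was 8849, 7306, 8248 and 7082 CPM. Isoflurane mice lay below the wake median in 6 of 7 and ketamine-xylazine mice above it in 4 of 4, but all ranges overlapped. The log2 fold change was -0.23 for isoflurane (SE 0.12, 95% interval -0.48 to 0.031, adjusted p = 0.343) and 0.26 for ketamine-xylazine (SE 0.14, interval -0.041 to 0.56, adjusted p = 0.272). Slc1a3 ranged from 1368 to 2682 CPM (median 2091) in wake and from 1482 to 2169 CPM (median 1864) in isoflurane mice. In ketamine-xylazine mice it was 2582, 2346, 2879 and 2268 CPM, above the wake median in 4 of 4. Its log2 fold changes were -0.13 (SE 0.13, adjusted p = 0.683) and 0.32 (SE 0.15, adjusted p = 0.198). With runs of mouse numbers as a block the ketamine-xylazine value turned to -0.041.

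Glul, which forms glutamine from the glutamate taken up, was at 470 to 892 CPM (median 678) in wake, 504 to 809 CPM (median 620) in isoflurane and 549, 571, 681 and 653 CPM in ketamine-xylazine mice. The ketamine-xylazine values lay within the wake range. Log2 fold changes were -0.034 (SE 0.14, adjusted p = 0.948) and -0.091 (SE 0.17, adjusted p = 0.768).

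The connexins spread widely between mice of a group. Gja1 ranged from 360 to 942 CPM (median 608) in wake and from 304 to 907 CPM (median 423) in isoflurane mice, and was 667, 628, 455 and 589 CPM in ketamine-xylazine mice. Its log2 fold change was -0.20 (SE 0.24, adjusted p = 0.724) for isoflurane and -0.029 (SE 0.28, adjusted p = 0.963) for ketamine-xylazine. Gjb6 was at 92 to 153 CPM (median 108) in wake, 53.2 to 185 CPM (median 98.7) in isoflurane and 146, 111, 96.1 and 173 CPM in ketamine-xylazine mice. The groups overlapped throughout, with log2 fold changes of -0.056 (SE 0.23) and 0.17 (SE 0.27).

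The water channel Aqp4 had the lowest fitted change under both anesthetics. It ranged from 222 to 577 CPM (median 374) in wake mice and from 193 to 464 CPM (median 249) in isoflurane mice, and it was 338, 275, 240 and 241 CPM in the ketamine-xylazine mice. Isoflurane mice were below the wake median in 5 of 7 and ketamine-xylazine mice in 4 of 4, and the ranges overlapped. The log2 fold change was -0.40 for isoflurane (SE 0.21, interval -0.85 to 0.041, adjusted p = 0.323) and -0.51 for ketamine-xylazine (SE 0.26, interval -1.05 to 0.026, adjusted p = 0.224). Without mice 11, 14, 17 and 20 the isoflurane value was -0.085. That fit kept mouse 15, which at 464 CPM was the highest isoflurane mouse. Leaving out single mice moved the isoflurane value between -0.59 (mouse 15) and -0.29 (mouse 14). With runs of mouse numbers as a block the isoflurane value was -0.49 (adjusted p = 0.0594) and the ketamine-xylazine value -0.18 (adjusted p = 0.945).

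The GABA transporter Slc6a11 was the member nearest to the threshold. It was at 165 to 288 CPM (median 215) in wake and 158 to 278 CPM (median 193) in isoflurane mice. In ketamine-xylazine mice it was 310, 285, 302 and 285 CPM, above the wake median in 4 of 4 and above every wake mouse in 2 of 4. Wake mouse 29, nearest to these mice in number, was at 288 CPM, the highest of the wake mice. The log2 fold change for ketamine-xylazine was 0.44 (SE 0.14, interval 0.14 to 0.74, adjusted p = 0.0707) and 0.12 (adjusted p = 0.943) with runs of mouse numbers as a block. For isoflurane it was -0.13 (SE 0.12). Slc7a10 was at 116 to 228 CPM (median 166) in wake, 130 to 190 CPM (median 162) in isoflurane and 169, 151, 154 and 155 CPM in ketamine-xylazine mice, with log2 fold changes of -0.10 (SE 0.13) and -0.11 (SE 0.15).

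**Figure D2:**
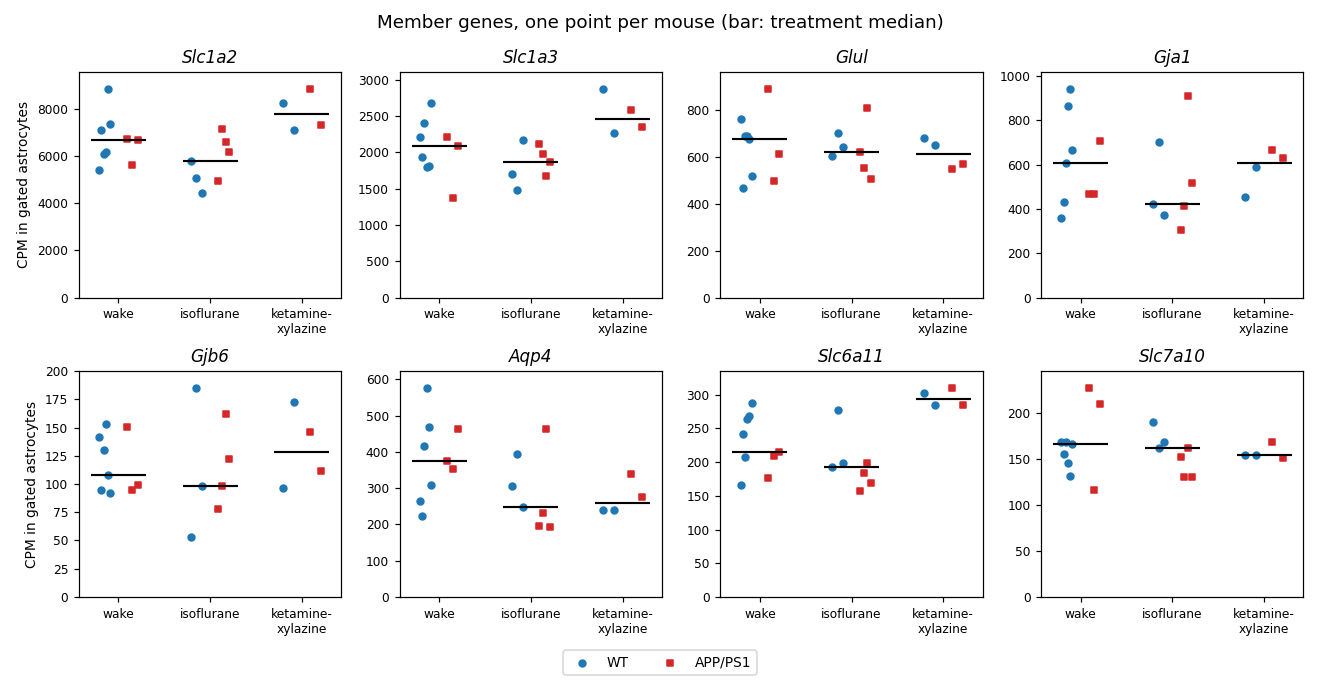
CPM of each member gene in the gated astrocytes (vertical axes, from 0) by treatment, with a circle for each WT and a square for each APP/PS1 mouse and a bar at the treatment median. Slc6a11 lay at 285 to 310 CPM in the 4 ketamine-xylazine mice, and each anesthetic overlapped with wake for all 8 genes.

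Between mice labelled APP/PS1 (9) and WT (11), none of the genes passed in astrocytes by edgeR or by DESeq2 (0%), and 523 had an unadjusted edgeR p below 0.05, and the members' log2 fold changes lay between -0.19 (Slc6a11, SE 0.11) and 0.086 (Slc1a2, SE 0.11). Slc1a2 was at 4950 to 8849 CPM (median 6686) in APP/PS1 and 4411 to 8823 CPM (median 6174) in WT mice. Aqp4 was at 193 to 465 CPM (median 338) in APP/PS1 and 222 to 577 CPM (median 306) in WT mice. The ranges of the genotypes overlapped for all 8 genes.

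The isoflurane comparison was repeated within each genotype, which addresses whether the response differs in the disease model. In WT mice 152 genes passed (1.09%) and in APP/PS1 mice 67 (0.479%), and the test of the difference itself called none (0%), with 499 genes below 0.05 before adjustment. DESeq2 called 345 and 233 genes within the genotypes. The WT count fell to 16 without mouse 18 and to 82 to 98 without mouse 12, 13, 14, 16, 19 or 29. The APP/PS1 count was 7 without mouse 10, 21 to 40 without mouse 2, 4, 15, 17 or 20, and 110 to 179 without mouse 3, 11 or 19. Slc1a2 had a log2 fold change of -0.42 in WT (SE 0.17, adjusted p = 0.255) and -0.029 in APP/PS1 mice (SE 0.18, adjusted p = 0.981), a difference of 0.39 (SE 0.25, adjusted p = 0.927). Slc7a10 had 0.15 in WT (SE 0.17) and -0.36 in APP/PS1 mice (SE 0.18), a difference of -0.51 (SE 0.25, adjusted p = 0.927). Its APP/PS1 value was -0.60 without mouse 10 and -0.14 without mouse 2, and the difference was -0.76 and -0.31 in the same fits. Aqp4 had -0.26 in WT (SE 0.29) and -0.55 in APP/PS1 mice (SE 0.31), a difference of -0.30 (SE 0.42, adjusted p = 0.951). Without mice 11, 14, 17 and 20 these values were -0.074, -0.096 and -0.023. Leaving out single mice moved the WT value between -0.44 (mouse 16) and -0.073 (mouse 14) and the APP/PS1 value between -0.94 (mouse 15, adjusted p = 0.180) and -0.37 (mouse 4).

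Summed over all nuclei, a lower level can come from fewer astrocytes, less RNA per astrocyte or the other cell classes, and these cannot be told apart. In these sums 1 member passed. Aqp4 was at 21.8 to 69.4 CPM (median 41.4) in wake and 33.6, 30.6, 20.2 and 26.3 CPM in ketamine-xylazine mice. These 4 mice were all below the wake median and 1 was below every wake mouse. The log2 fold change was -0.79 (SE 0.25, interval -1.31 to -0.27, adjusted p = 0.0456), beside 2545 of 20540 genes called (12.4%), a count of 628 to 1596 without mouse 2, 25, 26, 27 or 28. The call was kept by DESeq2 (adjusted p = 0.0198). It was lost without a filter on low counts (-0.79, adjusted p = 0.052), with total UMIs as the only scaling (-0.79, adjusted p = 0.0677), without mice 1 to 4 (-0.79, adjusted p = 0.092) and without mice 11, 14, 17 and 20 (-0.77, adjusted p = 0.0531), where the fold change moved by less than its SE. It was also lost in 14 of 20 fits that left out a single mouse. With runs of mouse numbers as a block the value was -0.17 (adjusted p = 0.97), and the only gene that passed was Npas4, which is named because of that count. Under isoflurane 1288 genes passed (6.27%) and no member, although all 8 had negative log2 fold changes, from -0.56 for Aqp4 (SE 0.20, adjusted p = 0.116) to -0.048 for Glul (SE 0.20), beside a median of -0.0028 over all genes. Glul turned to 0.048 with total UMIs as the only scaling and to 0.079 without mouse 2. With runs of mouse numbers as a block Aqp4 was at -0.65 (adjusted p = 0.0542). That comparison called 199 genes without mice 1 to 4 and 632 to 820 without mouse 2, 3, 10 or 18. Between the genotypes none passed over all nuclei (0%), with 351 genes below 0.05 before adjustment, and all 8 members had positive log2 fold changes, from 0.036 for Slc6a11 to 0.23 for Aqp4, beside a median of 0.00066 over all genes. Slc6a11 turned to -0.064 without mouse 10.

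**Figure D3:**
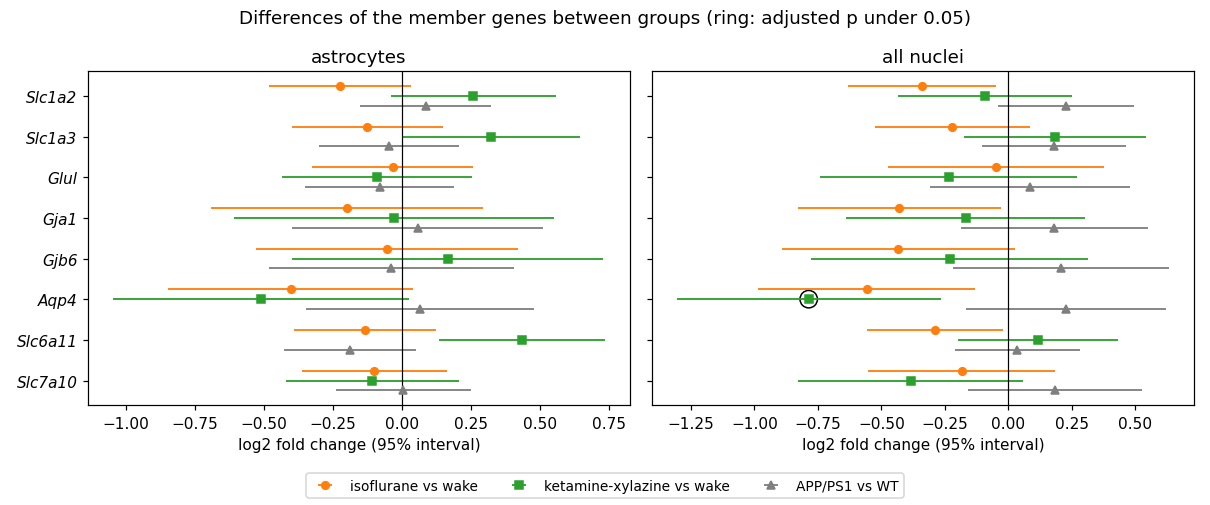
Log2 fold changes (horizontal axes) of the 8 members in gated astrocytes (left) and in all nuclei (right) for 3 comparisons, with bars for 95% intervals and a ring where the adjusted p was under 0.05. The single ring is Aqp4 under ketamine-xylazine in all nuclei, at -0.79.

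The share of nuclei gated as astrocytes was 15.2% ± 3.32 (SD, n = 9) in wake, 15.0% ± 2.62 (SD, n = 7) in isoflurane and 13.8% ± 2.11 (SD, n = 4) in ketamine-xylazine mice. Two-sided exact permutation tests gave p = 0.905 for isoflurane and p = 0.481 for ketamine-xylazine against wake. It was 15.8% ± 3.31 (SD, n = 9) in APP/PS1 and 14.1% ± 2.17 (SD, n = 11) in WT mice (two-sided permutation test with 100000 resamples, p = 0.195). Over these 3 comparisons no share difference passed. Leaving out single mice moved the isoflurane difference of -0.20 percentage points between -0.82 (mouse 4) and 0.57 (mouse 10), the ketamine-xylazine difference of -1.37 between -2.38 (mouse 26) and -0.60 (mouse 10) and the genotype difference of 1.66 between 0.96 (mouse 10) and 2.17 (mouse 15).

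Astrocytes were also compared by whether Gfap, an intermediate filament gene that marks part of the astrocytes and rises in reactive ones, was detected, and 5 of the 8 members passed. Of the 24212 astrocytes, 4341 (17.9%) had a Gfap UMI, and the share per mouse was 7.55 to 33.3% in wake, 8.68 to 20.5% in isoflurane and 23.5 to 48.7% in ketamine-xylazine mice. Counts with and without a Gfap UMI were compared within each mouse, and 1211 of 9278 genes passed (13.1%, 699 higher and 512 lower with Gfap). Aqp4 ranged from 399 to 1661 CPM (median 584) with Gfap and from 142 to 403 CPM (median 208) without, higher with Gfap in 20 of 20 mice. Its log2 fold change was 1.51 (SE 0.07, adjusted p = 1.3e-20). Slc1a2 was higher in 20 of 20 mice by 0.29 (SE 0.041, adjusted p = 1.2e-06) and Gja1 in 18 of 20 by 0.34 (SE 0.056, adjusted p = 1.7e-05). Glul was higher in 17 of 20 mice by 0.17 (SE 0.047, adjusted p = 0.0103).

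Slc7a10 went the other way. It ranged from 78.7 to 234 CPM (median 134) with Gfap and from 123 to 235 CPM (median 169) without, and it was higher with Gfap in 4 of 20 mice (log2 fold change -0.23, SE 0.073, adjusted p = 0.0297). These were 0 of 9 wake, 3 of 7 isoflurane and 1 of 4 ketamine-xylazine mice, with median log2 ratios of -0.57, -0.0018 and -0.42, and the difference between treatments was not tested. Slc1a3 (-0.078, SE 0.045), Gjb6 (-0.0084, SE 0.078) and Slc6a11 (0.042, SE 0.070) did not pass. Nuclei with a Gfap UMI were deeper, at a median of 801 to 2394 UMIs against 664 to 2106 per mouse. When each nucleus was thinned to 500 UMIs, 539 genes passed. Aqp4 kept 1.46, Slc1a2 0.28, Gja1 0.34 and Glul 0.19, all past the threshold, and Slc7a10 moved to -0.11 (adjusted p = 0.624). With at least 2 Gfap UMIs required, Aqp4 was at 2.28, Slc7a10 at -0.74 (adjusted p = 2.6e-05) and Slc1a3 passed at -0.27 (adjusted p = 0.0236), whereas Glul did not (0.20, adjusted p = 0.0785). The Slc7a10 call was kept in 15 of 20 fits that left out a mouse, and lost without mouse 12, 14, 17, 19 or 20 (adjusted p of 0.0508 to 0.0611).

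**Figure D4:**
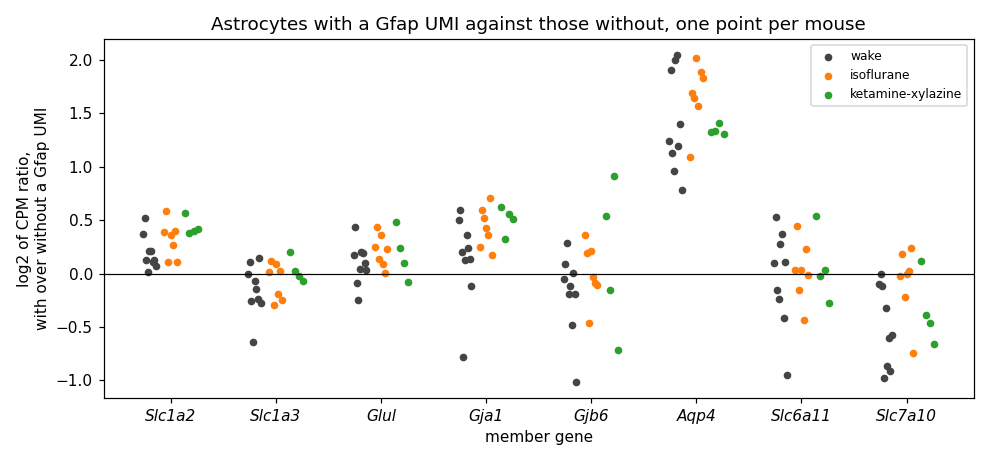
Log2 ratio of CPM in astrocytes with a Gfap UMI over those without (vertical axis) for each member and mouse, coloured by treatment, with a line at 0. Aqp4 lay above 0 in all 20 mice (0.78 to 2.04) and Slc7a10 below 0 in 16 of 20.

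Gfap itself was at 330 to 582 CPM in the astrocytes of ketamine-xylazine mice and 104 to 260 CPM in those of wake mice. The treatment comparisons were repeated in each kind of astrocyte. The share with a Gfap UMI varied between mice and was not tested. Its range in wake mice overlapped with that under each anesthetic, for ketamine-xylazine only through wake mouse 2 (33.3%). The kinds therefore need not hold like nuclei in each treatment, and these values do not hold the mix of astrocytes fixed. In astrocytes without a Gfap UMI, Aqp4 was at 172 to 202 CPM in ketamine-xylazine mice and 198 to 403 CPM in wake mice. With a Gfap UMI it was at 443 to 510 CPM and 399 to 1661 CPM. The log2 fold change of ketamine-xylazine against wake was -0.64 without Gfap (adjusted p = 0.156) and -0.75 with Gfap (adjusted p = 0.190), beside -0.51 in all astrocytes. For isoflurane Aqp4 was at -0.35 without Gfap (adjusted p = 0.411) and -0.13 with Gfap (adjusted p = 0.898), beside -0.40 in all astrocytes, and within APP/PS1 mice it was at -0.026 with Gfap. No member passed in either kind.

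Genes of 4 related lists, chosen with earlier results of these data known, are given beside the members as a description. Their counts of calls are therefore no test of the lists. Of 19 tested genes for glutamate, glutamine and GABA handling, 1 was higher and 3 were lower under isoflurane (list median -0.14, against -0.0084 over all genes, of which 5.55% passed). Slc7a11, the cystine-glutamate exchanger, fell from 190 to 367 CPM (median 260) in wake to 57.2 to 150 CPM (median 95.8), a log2 fold change of -1.50 (SE 0.23, adjusted p = 7.8e-04). Glud1, glutamate dehydrogenase, fell from 351 to 541 CPM (median 447) to 214 to 315 CPM (median 271), by -0.65 (SE 0.12, adjusted p = 0.0028). In both genes every isoflurane mouse was below every wake mouse. How many of all genes separated these mice in this way, here or below, was not counted. Slc38a2, a neutral amino acid transporter that carries glutamine, had -0.57 (SE 0.16, adjusted p = 0.0422). Slc1a5, a neutral amino acid exchanger, rose from 0 to 7.03 CPM in wake to 7.15 to 28.6 CPM, by 2.20 (SE 0.40, adjusted p = 0.0026), and rested on 0 to 15 UMIs per wake mouse.

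Of 11 genes for ion, lactate and glucose transport, 2 were lower and none higher under isoflurane (median -0.19, against -0.0084 and 5.55% called over all genes). The thyroid hormone and organic anion transporter Slco1c1 fell from 361 to 554 CPM (median 425) to 156 to 236 CPM (median 215) without overlap, by -1.06 (SE 0.12, adjusted p = 6.5e-05). It was lower within WT (-1.15, SE 0.18) and within APP/PS1 mice (-0.98, SE 0.18), and passed in both. The sodium bicarbonate cotransporter Slc4a4 fell by 0.53 on the log2 scale (SE 0.15, adjusted p = 0.0461), with overlapping ranges. The isoflurane calls of Slc4a4 and Slc38a2 lay near the threshold. Their values with a block or with mice left out are not given, and the isoflurane count over all genes fell to 414 without mouse 18. Of the 11 genes of the perivascular water channel complex, Sntb1, a syntrophin, was the single call under isoflurane (-1.12, SE 0.23, adjusted p = 0.0074) and under ketamine-xylazine (-1.31, SE 0.31, adjusted p = 0.0143). It was at 24.1 to 64 CPM in wake, 13.5 to 33.6 CPM in isoflurane and 13.7 to 22.3 CPM in ketamine-xylazine mice. The list medians were -0.16 and -0.26, against -0.0084 (5.55% called) and -0.069 (7.08% called) over all genes, so 1 call of 11 is near the share over all genes. The 2 anesthetic comparisons share their wake mice. Under ketamine-xylazine the neutral amino acid transporter Slc38a1 also fell, from 40 to 128 CPM in wake to 30.9 to 60.2 CPM (-1.04, SE 0.26, adjusted p = 0.0194), 1 of the 19 tested genes for glutamate, glutamine and GABA handling. With runs of mouse numbers as a block the ketamine-xylazine calls of Sntb1 and Slc38a1 were lost, as no gene passed. Of the 5 connexin, pannexin and scaffold genes tested, none passed in either comparison. Under isoflurane Gjc3, a connexin, had -0.66 (SE 0.28, adjusted p = 0.187) and Tjp1, a scaffold of junction proteins, had -0.33 (SE 0.12, adjusted p = 0.123). No gene of the 4 lists passed between genotypes.

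**Figure D5:**
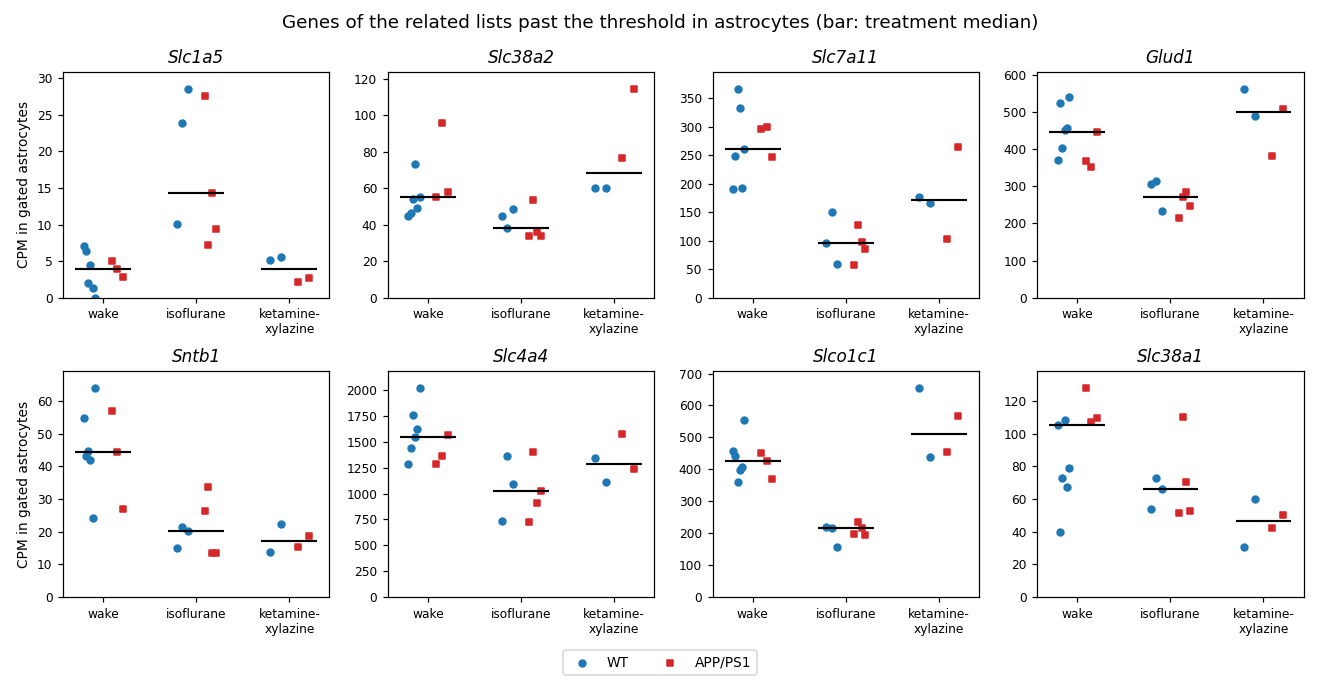
CPM in gated astrocytes (vertical axes, from 0) of the 8 genes of the related lists that passed in astrocytes, by treatment, with a symbol per mouse and a bar at the median. Slc7a11, Glud1 and Slco1c1 were lower in all 7 isoflurane mice than in any of the 9 wake mice. The genes were drawn because they passed, and the share of all genes that separated these mice was not counted.

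In all nuclei, Slc38a2, Slc7a11 and Glud1 were also lower under isoflurane, 3 of 20 genes for glutamate, glutamine and GABA handling. Slco1c1 was lower as 1 of 11 genes for ion, lactate and glucose transport. Under ketamine-xylazine Slc1a1, Slc38a1 and Gpt2 were lower, 3 of the same 20 genes. Mlc1, a membrane protein of astrocyte endfeet, was lower as 1 of 11 genes of the water channel complex (-0.97, SE 0.30, adjusted p = 0.0404). The other lists had no call in these comparisons. The share of all genes called in these comparisons was 6.27% and 12.4%. The 4 ketamine-xylazine calls were lost with runs of mouse numbers as a block. In ketamine-xylazine mice the fibroblast marker genes summed to 363 to 970 CPM within the gated astrocytes, against 208 to 487 CPM in wake mice, with 14 of 14 markers detected and a sum of 10824 CPM in fibroblast-like nuclei. The 11 CA3 pyramidal markers, all detected, summed to 1254 to 1545 CPM in the astrocytes of wake mice, 880 to 1522 CPM in those of isoflurane mice and 1049 to 1258 CPM in those of ketamine-xylazine mice, against 4175 CPM in CA3-like nuclei. The 11 granule neuron markers, also all detected, summed to 646 to 934 CPM (median 730), 471 to 890 CPM (median 598) and 648 to 678 CPM (median 666), against 3950 CPM in granule neuron-like nuclei. The part of these markers in the isoflurane and ketamine-xylazine values was not tested.

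As a description, the genes whose astrocyte levels most resembled those of 7 members over the 20 mice were listed by Pearson's r of log2(CPM + 1), among 4075 genes with a mean of at least 50 CPM. The mice share treatment and depth differences, so no p is given. Slc1a2 was most like Gpam (r = 0.87), Glul like Bcap31 (0.77), Gja1 like Crebzf (0.87), Gjb6 like Kdm3a (0.82), Aqp4 like Laptm4a (0.83), Slc6a11 like Atl2 (0.86) and Slc7a10 like Lrpap1 (0.73).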

How the data were processed

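Single nucleus RNA-seq libraries from the hippocampus of 20 mice were made with a 10x Genomics 3' kit (v3 in the study's methods, v3.1 in the labels). The values are raw UMI counts per gene and nucleus, which the authors deposited after running Cell Ranger 5.0.0 on mm10, per the submitters' processing notes. The methods also name CellBender, which the notes do not, so whether free RNA had been removed from these counts is not known. Nuclei were assigned by marker lists: a class needed at least 3 different markers and at least 2 times as many as any other class, which also dropped nuclei with markers of several classes. No doublet caller was run.

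Counts were summed per mouse over the gated astrocytes and over all nuclei. Groups follow the sample labels. Sums were tested with edgeR 4.0.16 (limma 3.58.1, R 4.3.3; TMM, filterByExpr, quasi-likelihood F test, a mean per group of genotype and treatment), with Benjamini-Hochberg adjustment over all genes tested and a threshold of 0.05. Astrocytes with and without a Gfap UMI were compared with mouse as a block. The fits were tested on simulated counts. DESeq2 1.42.0, other scalings, gates, filters and blocks, and each mouse left out were alternatives. The fits without mice 11, 14, 17 and 20 and those on astrocytes with or without a Gfap UMI were chosen after seeing the data. Mice are the replicates. The study's methods describe tissue batches of 4 mice, each with a sample of every WT and APP/PS1 wake and anesthesia group, but the labels do not assign mice to them. Blocks of neighbouring mouse numbers, called runs (mice 1 to 4; 10 to 13; 14 to 17; 18 to 20; 25 to 29), stood in for batches. The runs 1 to 4 and 14 to 17 hold 1 mouse of each wake and isoflurane group and the others do not, so the block may differ from the true batches. The members and lists were chosen with earlier results of these data known. Named genes were the 8 members, the called genes of 4 related lists and otherwise at most the 2 largest changes per list; Npas4 and Prnp were named after their values were seen. The gene most like Slc1a3 is not reported here.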

Additional observations from a re-analysis of the deposited data

Results flagged for a closer look

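Dixon's test, applied where a group held 4 to 10 mice, was run on 34 sets of values, each of 1 measure in 1 group. The sets share mice. In 2 sets a value lay far from the rest, and about 1 in 20 sets is flagged by chance. Among the APP/PS1_Isofluran mice, mouse 15 was at 464.5 CPM of Aqp4 in astrocytes, against a median of 196 CPM in the others. Among the WT_Wake mice, mouse 19 was at 1155 CPM of Slc1a2 over all nuclei, against a median of 718 CPM in the others.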

How the results depend on the processing

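No member passed in astrocytes for treatment or genotype under any alternative. The groups share no replicate numbers, so mice were not paired by number, and runs of mouse numbers were used as a block in their place. The cause of the changes that follow was not tested, and some of the alternatives also hold fewer mice or nuclei. Counts of genes past the threshold changed as follows. A fit without mice 1 to 4 gave 485 for isoflurane in astrocytes, 27 for isoflurane within APP/PS1, 199 for isoflurane over all nuclei and 1632 for ketamine-xylazine over all nuclei. A fit on only astrocytes with a Gfap UMI gave 185 for isoflurane in astrocytes, 392 for ketamine-xylazine in astrocytes, 18 for isoflurane within WT and 6 for isoflurane within APP/PS1. A fit with runs of mouse numbers as a block gave 0 for ketamine-xylazine in astrocytes, 246 for isoflurane within WT, 250 for isoflurane within APP/PS1, 2056 for isoflurane over all nuclei and 1 for ketamine-xylazine over all nuclei. A fit on only astrocytes without a Gfap UMI gave 518 for ketamine-xylazine in astrocytes. DESeq2 gave 345 for isoflurane within WT and 233 for isoflurane within APP/PS1. A minimum of 500 genes per nucleus gave 99 for isoflurane within WT and 41 for isoflurane within APP/PS1. A fit without mice 11, 14, 17 and 20 gave 25 for isoflurane within APP/PS1 and 1 for genotype over all nuclei. Leaving out astrocytes with over 3 times the median UMIs gave 114 for isoflurane within APP/PS1. A fit on only the treatments compared gave 30 for isoflurane within APP/PS1. Thinning each nucleus to 500 UMIs gave 539 for the Gfap comparison. The 1 member called over all nuclei under ketamine-xylazine became 0 with "no filter on low counts", "total UMIs only", "runs of mouse numbers as a block", "without mice 1 to 4" and "without mice 11, 14, 17 and 20". The 1 gene past the threshold for genotype over all nuclei was Prnp, whose level chose the 4 mice left out, so this call is fixed by that choice. The difference in astrocyte share under isoflurane was 0.19 percentage points with "more astrocyte markers than of any other class". No log2 fold change that turned sign was past the threshold. For isoflurane in astrocytes, Glul was at 0.0259 (total UMIs only), 0.17 (without mice 1 to 4), 0.0849 (without mice 11, 14, 17 and 20), 0.0253 (at least 5 astrocyte markers), 0.0419 (astrocytes over 3 times the median UMIs left out), 0.0073 (only astrocytes without a Gfap UMI) and 0.0606 (only astrocytes with a Gfap UMI). For isoflurane in astrocytes, Gja1 was at 0.083 (without mice 11, 14, 17 and 20) and 0.012 (only astrocytes with a Gfap UMI). For isoflurane in astrocytes, Gjb6 was at 0.0055 (total UMIs only), 0.36 (without mice 1 to 4), 0.0047 (without mice 11, 14, 17 and 20), 0.0184 (astrocytes over 3 times the median UMIs left out) and 0.0066 (only astrocytes with a Gfap UMI). For isoflurane in astrocytes, Slc7a10 was at 0.0367 (without mice 11, 14, 17 and 20) and 0.25 (only astrocytes with a Gfap UMI). For ketamine-xylazine in astrocytes, Slc1a3 was at -0.0414 (runs of mouse numbers as a block). For ketamine-xylazine in astrocytes, Glul was at 0.27 (runs of mouse numbers as a block) and 0.0706 (without mice 1 to 4). For ketamine-xylazine in astrocytes, Gja1 was at 0.16 (without mice 11, 14, 17 and 20), 0.0009 (astrocytes over 3 times the median UMIs left out) and 0.14 (only astrocytes with a Gfap UMI). For genotype in astrocytes, Glul was at 0.0232 (without mice 11, 14, 17 and 20) and 0.0739 (only astrocytes with a Gfap UMI). For genotype in astrocytes, Gja1 was at -0.0182 (more astrocyte markers than of any other class). For genotype in astrocytes, Gjb6 was at 0.0433 (without mice 11, 14, 17 and 20) and 0.14 (only astrocytes with a Gfap UMI). For genotype in astrocytes, Aqp4 was at -0.023 (more astrocyte markers than of any other class), -0.0313 (only astrocytes without a Gfap UMI) and -0.0032 (only astrocytes with a Gfap UMI). For genotype in astrocytes, Slc7a10 was at -0.0084 (runs of mouse numbers as a block), -0.0382 (without mice 1 to 4), -0.0093 (at least 5 astrocyte markers), -0.0587 (more astrocyte markers than of any other class) and -0.0271 (only astrocytes without a Gfap UMI). For isoflurane within APP/PS1, Slc1a2 was at 0.12 (without mice 1 to 4), 0.0083 (more astrocyte markers than of any other class), 0.0135 (astrocytes over 3 times the median UMIs left out), 0.0461 (only astrocytes without a Gfap UMI) and 0.0498 (only astrocytes with a Gfap UMI). For the interaction, Aqp4 was at 0.20 (only astrocytes with a Gfap UMI). For isoflurane over all nuclei, Glul was at 0.0479 (total UMIs only). For ketamine-xylazine over all nuclei, Slc1a3 was at -0.0736 (runs of mouse numbers as a block). For ketamine-xylazine over all nuclei, Glul was at 0.22 (runs of mouse numbers as a block). For the Gfap comparison, Slc6a11 was at -0.12 (at least 2 Gfap UMIs against 0). 

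When single mice were left out, the number of genes past the threshold ranged from 414 to 939 for isoflurane in astrocytes, 247 to 1187 for ketamine-xylazine in astrocytes, 16 to 195 for isoflurane within WT, 7 to 179 for isoflurane within APP/PS1, 632 to 1549 for isoflurane over all nuclei and 628 to 3072 for ketamine-xylazine over all nuclei. The number of members called for ketamine-xylazine over all nuclei ranged from 0 to 1. The difference in astrocyte share of nuclei under isoflurane ranged from -0.82 to 0.57 percentage points. Log2 fold changes that took both signs ranged from -0.12 to 0.12 for Glul (isoflurane in astrocytes), -0.30 to 0.13 for Gjb6 (isoflurane in astrocytes), -0.23 to 0.0142 for Slc7a10 (isoflurane in astrocytes), -0.18 to 0.0526 for Glul (ketamine-xylazine in astrocytes), -0.13 to 0.0851 for Gja1 (ketamine-xylazine in astrocytes), -0.0886 to 0.35 for Gjb6 (ketamine-xylazine in astrocytes), -0.10 to 0.0309 for Slc1a3 (genotype in astrocytes), -0.0709 to 0.18 for Gja1 (genotype in astrocytes), -0.16 to 0.16 for Gjb6 (genotype in astrocytes), -0.0662 to 0.15 for Aqp4 (genotype in astrocytes), -0.0366 to 0.0869 for Slc7a10 (genotype in astrocytes), -0.11 to 0.12 for Slc1a2 (isoflurane within APP/PS1), -0.17 to 0.0786 for Glul (isoflurane over all nuclei), -0.0642 to 0.09 for Slc6a11 (genotype over all nuclei) and -0.0511 to 0.0227 for Gjb6 (the Gfap comparison). The 4 ketamine-xylazine mice, the shallow astrocyte nuclei (a median of 675 to 2203 UMIs) and the overlap of Prnp between the labelled genotypes limit what these sums can resolve.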
